A study of Mus musculus with 8 samples.

Results

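The Myc, Max and Mxd network is a family of basic helix-loop-helix leucine zipper transcription factors. It was described here through 10 genes, found in the deposited count table by mouse gene ID: the Myc factors Myc and Mycn, the shared partner Max, the opposing factors Mxd1, Mxi1, Mxd3, Mxd4 and Mnt, the Max-like factor Mlx, and the dual-domain factor Mga. All 10 were among the 24573 genes of the table. Of these, 9 were among the 12420 genes with enough counts to be tested, and Mycn was not. RNA had been measured in C2C12 cells, a mouse myoblast line, kept proliferating at sub-confluent density and transduced with lentivirus that carried an shRNA. The knockdown groups carried an shRNA against Brd9, against Baf250A (the product of Arid1a) or against Baf180 (the product of Pbrm1), and the control group carried a scramble shRNA. All 4 groups had also been grown in 10% serum, treated with polybrene, selected with puromycin and kept in it. Each group had 2 libraries, each knockdown used 1 shRNA, and all 3 knockdowns were set against the same 2 scramble libraries. Brd9, Baf250A and Baf180 are subunits that mark the non-canonical BAF, canonical BAF and PBAF forms of the SWI/SNF chromatin remodeller.

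Myc activates transcription only as a dimer with Max, at DNA elements called E-boxes whose preferred core is CACGTG. Mxd proteins and Mnt compete for Max and for the same elements, and recruit the Sin3 and Hdac corepressor complex. Mlx pairs with some Mxd proteins and Mnt, and with the glucose-sensing factors Mlxip and Mlxipl, while Mga pairs with Max and sits in the Polycomb complex PRC1.6, which silences germline genes. Myc is known for driving ribosome production and cell growth, and it falls as myoblasts leave the cell cycle to differentiate, while Mxd factors rise in many differentiating cell types.

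Since network dimers bind CACGTG, the promoters of the members themselves were searched for it. The windows run from 250 bases before to 50 bases after a start site and come from RefSeq on GRCm38.p6. CACGTG is its own reverse complement, so a single search covered both strands. Windows were found for 9 of the 10 genes, and Myc had no entry. CACGTG stood in the windows of Max, Mxd4, Mnt and Mlx, which is 4 of 9 genes (44.4%), against 11.8% of 9886 tested genes with a window and 8.09% of all 27025 genes with a window. Its first base lay at -3 from the start site in Max (chr12:76962199-76962498, minus strand), at -219 in Mxd4 (chr5:34187661-34187960, minus strand), at -123 in Mnt (chr11:74830674-74830973, plus strand) and at -40 in Mlx (chr11:101087040-101087339, plus strand). The 30 bases around each are shown 5′ to 3′ on the gene's strand, with the CACGTG in capitals, because they are the places in the members' own promoters that carry the network's preferred core.
Max site: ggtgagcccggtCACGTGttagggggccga
Mxd4 site: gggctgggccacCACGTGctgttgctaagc
Mnt site: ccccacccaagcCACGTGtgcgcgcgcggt
Mlx site: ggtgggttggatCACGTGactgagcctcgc
The whole window of Mxd4 is also shown, because Mxd4 differed most from scramble among the members once GC content and length were allowed for; the capitals again mark CACGTG.
Mxd4 promoter: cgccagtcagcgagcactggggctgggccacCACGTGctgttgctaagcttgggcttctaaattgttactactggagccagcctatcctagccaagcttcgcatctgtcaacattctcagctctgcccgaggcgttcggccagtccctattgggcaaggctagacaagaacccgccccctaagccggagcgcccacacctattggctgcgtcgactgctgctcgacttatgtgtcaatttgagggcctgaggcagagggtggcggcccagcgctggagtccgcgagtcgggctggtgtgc
A match describes the letters and does not show that any factor binds there.

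Libraries held 17763062 to 20400855 counts, and 14195 to 14768 genes had a count in 7 of them, against 16402 in scramble replicate 2. The targeted genes were lower in their own knockdowns, with log2 fold changes of -2.39 for Brd9, -1.27 for Arid1a and -3.63 for Pbrm1, all called whichever library was left out. Summed CPM (counts per 1000000 after TMM scaling of the libraries) over 8 myoblast markers, all 8 detected in each group, ran from 1480 to 1880 in Brd9, 995 to 1200 in Baf250A, 2470 to 3460 in Baf180 and 1740 to 1770 in scramble. Of markers of other cell types, 5 macrophage genes summed to 2.07 to 3.59 CPM per library, with Adgre1 at 0 in every group. The endothelial and epithelial markers, 4 genes each, summed to at most 0.436 CPM in any library, with Tie1 and Epcam at 0 in every group. Fold changes followed the GC content of transcripts. Among tested genes in the lowest 10% of GC content (up to 42.3%), the median log2 fold change was 0.34 in Brd9, 0.93 in Baf250A and -0.81 in Baf180 against scramble. In the highest 10% (58.5% and above) it was -0.13, -0.38 and 0.51. With per-library offsets for GC content and length, fitted to remove such trends, these medians lay between -0.04 and 0.03. Such medians follow from the fit and do not show that the offsets are right. Values with the offsets are given where they change a call of a member, and counts with the offsets beside the counts of each gene list. RNA came from whole cultures, in which fewer cells with a transcript and less of it per cell cannot be told apart.

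Each count of members called is given beside the share of all tested genes that was called in the same comparison (edgeR, adjusted p under 0.05). In Brd9 knockdown 2 of 9 members were called, Mxd4 up and Mlx down, where 10.0% of all tested genes were called. In Baf250A knockdown 3 of 9 were called, Mga up and Mxi1 and Mlx down, against 29.5% of all tested genes. In Baf180 knockdown 5 of 9 were called, Mxd4, Mxd1 and Mnt up and Mxi1 and Mga down, against 34.2% of all tested genes. Without 1 library these counts ran from 0 to 2, from 0 to 3 and from 1 to 5. The Brd9 count was 0 without either scramble library and 1 without either Brd9 library. The Baf250A count was 1 without scramble replicate 1 and 0 without Baf250A replicate 2. The Baf180 count was 2 without scramble replicate 1 and 1 without scramble replicate 2 or Baf180 replicate 1. With the GC and length offsets, 6 of 9 members were called in Baf250A, against 35.5% of all tested genes. In Baf180 the offsets added a call of Myc and ended those of Mnt and Mga, where 19.5% of all tested genes were higher and 18.8% lower. In Brd9 the members called with the offsets were again Mxd4 and Mlx, where 14.4% were higher and 13.9% lower. The summed myoblast markers given above were lower than scramble in both Baf250A libraries and higher in both Baf180 libraries, and their part in the members' differences was not tested.

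**Figure D1:**
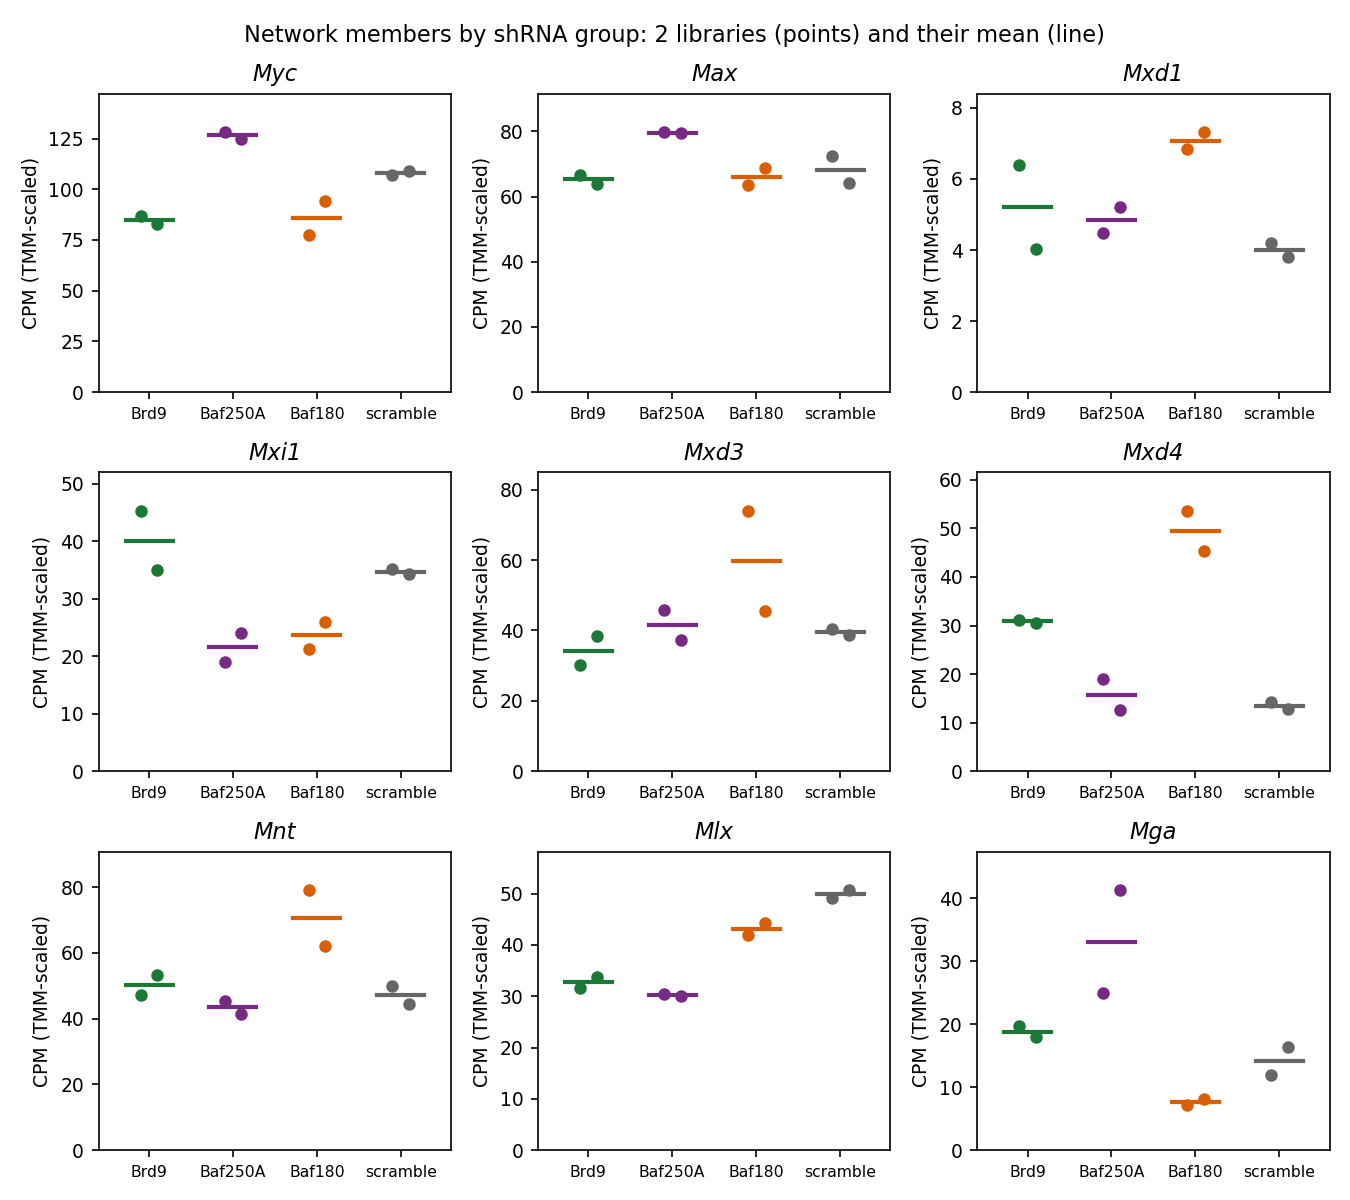
CPM of the 9 tested members (vertical axes, from 0) in the libraries of the Brd9, Baf250A and Baf180 knockdowns and of scramble (horizontal axes). Points are libraries and lines the mean of 2. The Mxd4 points of Brd9 (31.2 and 30.5) and Baf180 (53.5 and 45.3) stand above those of scramble (14.2 and 12.8), and the Mlx points of the 3 knockdowns stand below those of scramble (49.1 and 50.6).

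**Figure D2:**
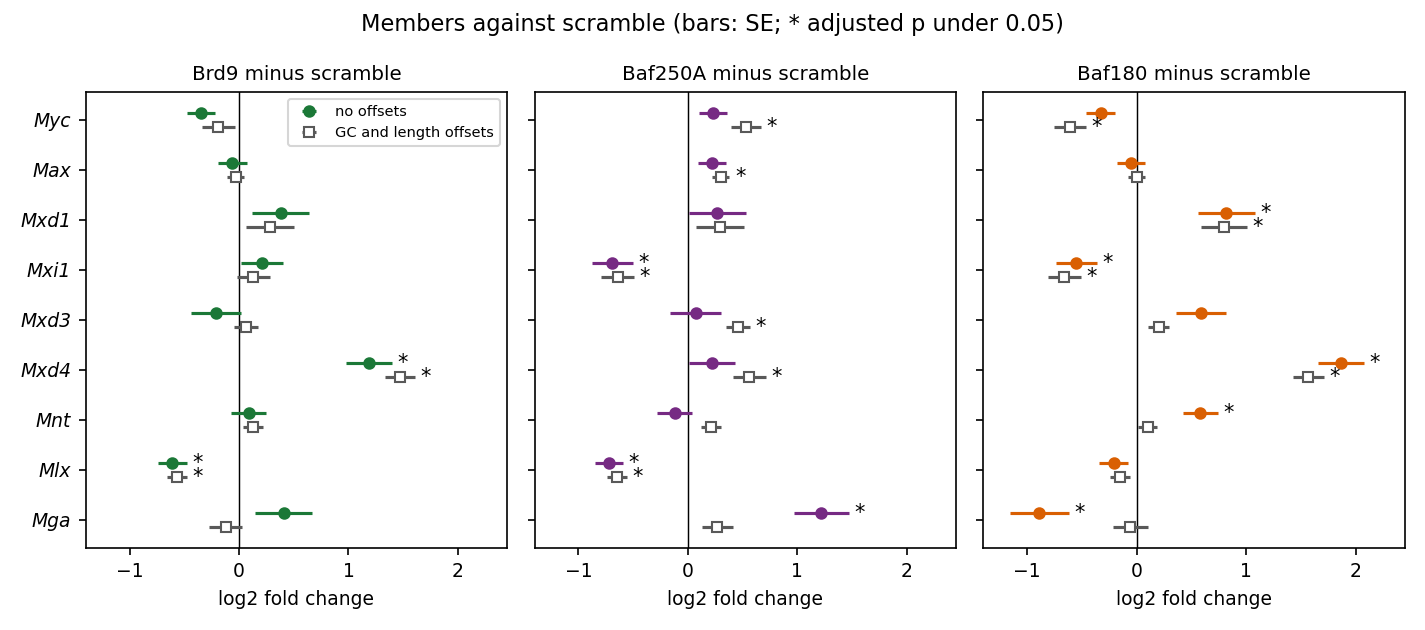
Log2 fold change of each tested member against scramble in the Brd9, Baf250A and Baf180 knockdowns, without offsets (filled circles) and with GC and length offsets (open squares). Bars are standard errors and asterisks mark an adjusted p under 0.05. Mxd4 (Brd9, Baf180), Mxd1 (Baf180), Mxi1 (Baf250A, Baf180) and Mlx (Brd9, Baf250A) carry both asterisks, while Mga moves from 1.22 to 0.27 in Baf250A and from -0.89 to -0.06 in Baf180 when the offsets are added.

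Myc, the growth-driving factor of the family (gene ID 17869, chr15:61985341-61990361, plus strand, GRCm38), had 86.7 and 83.1 CPM in Brd9, 128 and 125 CPM in Baf250A, 77.4 and 94.1 CPM in Baf180, and 107 and 109 CPM in scramble. Both Baf250A libraries lay above both scramble libraries, and the Brd9 and Baf180 libraries lay below them. None of these differences from scramble was called: log2 fold changes were -0.35 ± 0.13 in Brd9 (SE; adjusted p = 0.121), 0.23 ± 0.13 in Baf250A (0.199) and -0.33 ± 0.13 in Baf180 (0.0808). The Baf180 value became -0.48 (adjusted p = 0.0351) without Baf180 replicate 2. With the GC and length offsets, Myc was called higher in Baf250A (0.53, adjusted p = 0.0174) and lower in Baf180 (-0.61, 0.00884), and not in Brd9 (-0.19, 0.341). Between knockdowns, Myc was 1.49-fold higher in Baf250A than in Brd9 (log2 fold change 0.58 ± 0.13, adjusted p = 0.0136) and 1.48-fold higher in Baf250A than in Baf180 (0.56 ± 0.13, 0.00525). The first of these calls was lost without Brd9 replicate 2 or Baf250A replicate 2 (0.58 to 0.63, adjusted p from 0.051 to 0.0674), and both held with the offsets. The order was therefore Baf250A, scramble, Baf180 and Brd9, in which no neighbours differed by a call. Pvt1, the noncoding transcript that neighbours Myc, was not called in any knockdown (0.28 in Brd9, 0.27 in Baf250A and 0.06 in Baf180).

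Mycn, the Myc factor of embryonic and neural tissue, was counted 0 times in all 8 libraries. A floor of 3 counts equals 0.145 to 0.174 CPM in these libraries, so its level was under that bound and no fold change is given. Mycl, the third Myc factor and not a member of the list of 10, was well counted and varied more than Myc. Its counts were 493 and 410 in Brd9, 25 and 19 in Baf250A, 245 and 313 in Baf180, and 172 and 175 in scramble. No library of any knockdown fell within the scramble range, with Brd9 and Baf180 above it and Baf250A below it. Mycl was 2.29-fold higher in Brd9 than in scramble (log2 fold change 1.20 ± 0.19, adjusted p = 0.00537) and 8.78-fold lower in Baf250A than in scramble (-3.13 ± 0.23, 4.55e-05). In Baf180 it was 1.58-fold higher (0.66 ± 0.19, 0.0258), a call that ended with the offsets (0.35, 0.145) and without scramble replicate 1, scramble replicate 2 or Baf180 replicate 2 (0.53 to 0.69, 0.0861 to 0.138). The Brd9 call ended without either scramble library (1.16 to 1.23, 0.0596 to 0.0634) and held with the offsets (1.33, 0.000616). Per length, Mycl stood at 16.1 and 13.0 TPM (transcripts per 1000000, a scale per length) in Brd9, 0.74 and 0.604 TPM in Baf250A, 6.58 and 9.51 TPM in Baf180, and 5.05 and 5.37 TPM in scramble. The Myc levels on the same scale were 84.2 and 72.3 TPM in Brd9, 109 and 111 TPM in Baf250A, 51.7 and 75.6 TPM in Baf180, and 80.7 and 83.1 TPM in scramble, so Myc was the more abundant of the 2 transcripts in every library.

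Max, the shared partner of Myc, the Mxd proteins, Mnt and Mga (gene ID 17187, chr12:76937269-76962323, minus strand), varied least among the tested members, with a range of group means of 0.28 (log2 CPM). It had 66.7 and 64.0 CPM in Brd9, 79.7 and 79.6 CPM in Baf250A, 63.6 and 68.7 CPM in Baf180, and 72.4 and 64.2 CPM in scramble. The Baf250A libraries lay above all others, and the libraries of the other 3 groups overlapped. Log2 fold changes against scramble were -0.06 ± 0.13 in Brd9, 0.22 ± 0.13 in Baf250A and -0.05 ± 0.13 in Baf180 (adjusted p = 0.761, 0.201 and 0.8). With the offsets the Baf250A difference was called (0.30 ± 0.08, adjusted p = 0.0155). Baf250A minus Brd9 was 0.28 and Baf250A minus Baf180 0.27 (adjusted p = 0.13 and 0.0921), and both were called with the offsets (0.33 and 0.30, adjusted p = 0.00819 and 0.0102). No neighbours in the order of Baf250A, scramble, Baf180 and Brd9 differed by a call without the offsets.

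Mxd1, a Max partner induced in differentiating cells (gene ID 17119, chr6:86647044-86669234, minus strand), was the member with the fewest counts among those tested in every library. It had 132 and 77 counts in Brd9, 89 and 101 in Baf250A, 118 and 134 in Baf180, and 75 and 66 in scramble. Both Baf180 libraries exceeded both scramble libraries, while on the CPM scale the Brd9 pair (6.40 and 4.03) overlapped the scramble pair (4.21 and 3.81). Mxd1 was 1.76-fold higher in Baf180 than in scramble (7.08 ± 0.333 CPM against 4.01 ± 0.281 CPM, SD of 2 libraries; log2 fold change 0.82 ± 0.26, adjusted p = 0.038). The call held with the offsets (0.80, 0.0145) and was lost without either scramble library or either Baf180 library (0.75 to 0.89, adjusted p from 0.0862 to 0.175). It was not called in Brd9 (0.38 ± 0.26, 0.351) or in Baf250A (0.27 ± 0.26, 0.445), nor between any pair of knockdowns. The largest group mean was that of Baf180, followed by Brd9, Baf250A and scramble, with no call between neighbours.

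Mxi1, also known as Mxd2, a Max partner that opposes Myc in growth control (gene ID 17859, chr19:53310128-53373293, plus strand), had 45.2 and 35.0 CPM in Brd9, 19.0 and 24.1 CPM in Baf250A, 21.3 and 26.0 CPM in Baf180, and 35.2 and 34.3 CPM in scramble. The Baf250A and Baf180 libraries lay below every Brd9 and scramble library, and the Brd9 pair overlapped the scramble pair. Mxi1 was 1.61-fold lower in Baf250A than in scramble (log2 fold change -0.69 ± 0.19, adjusted p = 0.0255) and 1.47-fold lower in Baf180 than in scramble (-0.55 ± 0.19, 0.0491). Both calls held with the offsets (-0.64 and -0.66, adjusted p = 0.00864 and 0.00725). The Baf250A call was lost without either scramble library or either Baf250A library (-0.82 to -0.46, 0.0536 to 0.153). The Baf180 call was lost without either scramble library, either Brd9 library or Baf180 replicate 1 (-0.57 to -0.42, 0.0506 to 0.238). The difference of Brd9 from scramble was 0.21 ± 0.19 (adjusted p = 0.478). Set against each other, Baf250A was 1.86-fold lower than Brd9 (-0.90 ± 0.19, 0.00953) and Baf180 1.70-fold lower than Brd9 (-0.76 ± 0.19, 0.0122). The first was lost without Brd9 replicate 1 or Baf250A replicate 1 (-0.69 to -0.66, 0.0603 to 0.0675), and the second without Brd9 replicate 1 or Baf180 replicate 1 (-0.62 to -0.57, 0.0888 to 0.105). Baf250A and Baf180 did not differ by a call (-0.14 ± 0.19, 0.554). Of the exonic bases of Mxi1, 2.8% overlap Gm10197 on the other strand.

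Mxd3, an Mxd factor linked to dividing cells (gene ID 17121, chr13:55325170-55329900, minus strand), had 30.2 and 38.3 CPM in Brd9, 45.8 and 37.3 CPM in Baf250A, 73.8 and 45.6 CPM in Baf180, and 40.3 and 38.8 CPM in scramble. Both Baf180 libraries lay above both scramble libraries, but stood far apart from each other. None of the differences from scramble was called, with log2 fold changes of -0.21 ± 0.23 in Brd9, 0.07 ± 0.23 in Baf250A and 0.59 ± 0.23 in Baf180 (adjusted p = 0.565, 0.827 and 0.0718). The Baf180 difference was called without Baf180 replicate 2 (0.90, 0.0124), whereas with the offsets it was 0.20 (0.161). With the offsets the Baf250A difference was called (0.46, 0.0078). Mxd3 was 1.74-fold higher in Baf180 than in Brd9 (0.80 ± 0.23, 0.02), a call that ended with the offsets (0.14, 0.335) and without Brd9 replicate 1 or Baf180 replicate 1 (0.42 to 0.63, 0.137 to 0.17). Baf250A minus Baf180 was -0.52 ± 0.23 (0.0711) and was called without Baf180 replicate 2 (-0.83, 0.00653). Baf250A minus Brd9 was 0.28 (0.403) and was called with the offsets (0.40, 0.0124). Its transcripts had a GC content of 57.0%, and 4.4% of its exonic bases overlap Prelid1 on the other strand. Prelid1, a mitochondrial lipid transfer factor, had 8819 and 8372 counts in Brd9, 12129 and 9970 in Baf250A, 13561 and 11678 in Baf180, and 10073 and 11484 in scramble. Mxd3 itself had 623 and 731 counts in Brd9, 910 and 722 in Baf250A, 1273 and 836 in Baf180, and 718 and 671 in scramble. Both genes had their highest count in Baf180 replicate 1. Prelid1 was not called against scramble (-0.51 in Brd9, -0.13 in Baf250A and 0.21 in Baf180; adjusted p = 0.0698, 0.542 and 0.309), and the part of Prelid1 reads in the Mxd3 counts was not tested.

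Mxd4, an Mxd factor that opposes Myc-driven growth (gene ID 17122, chr5:34176580-34187710, minus strand, promoter window above), had the largest change of any member called in a comparison with scramble. It had 643 and 582 counts in Brd9, 376 and 243 in Baf250A, 923 and 830 in Baf180, and 253 and 221 in scramble. The Brd9 and Baf180 libraries stood above every scramble and Baf250A library, and the Baf250A pair overlapped the scramble pair. Mxd4 was 3.66-fold higher in Baf180 than in scramble (49.4 ± 5.81 CPM against 13.5 ± 1.02 CPM, SD of 2 libraries; log2 fold change 1.87 ± 0.21, adjusted p = 0.000444), called whichever library was left out. It was 2.28-fold higher in Brd9 than in scramble (30.8 ± 0.488 CPM against 13.5 ± 1.02 CPM; 1.19 ± 0.21, 0.00845), a call lost without either scramble library (1.11 to 1.27, 0.0574 to 0.105). In Baf250A the difference was 0.22 ± 0.21 (0.429). With the offsets, Mxd4 was called higher in all 3 knockdowns, by 1.47 ± 0.14 in Brd9, 0.56 ± 0.15 in Baf250A and 1.57 ± 0.14 in Baf180 (adjusted p = 8.73e-05, 0.0152 and 3.33e-05). Between knockdowns, Baf250A was 1.96-fold lower than Brd9 (-0.97 ± 0.20, 0.00923; lost without Baf250A replicate 2, -0.67, 0.0671) and 3.14-fold lower than Baf180 (-1.65 ± 0.21, 0.000258; called whichever library was left out). Baf180 was 1.6-fold higher than Brd9 (0.68 ± 0.20, 0.0215), but with the offsets the difference was 0.10 ± 0.13 (0.604). That call was also lost without either Brd9 library or Baf180 replicate 1 (0.56 to 0.69, 0.064 to 0.127).

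Mnt, a broadly expressed Max partner that restrains Myc in resting and growing cells alike (gene ID 17428, chr11:74830806-74845725, plus strand), had 47.1 and 53.3 CPM in Brd9, 45.5 and 41.3 CPM in Baf250A, 79.0 and 62.1 CPM in Baf180, and 49.8 and 44.4 CPM in scramble. Both Baf180 libraries exceeded the libraries of all other groups, which overlapped with scramble. Mnt was 1.50-fold higher in Baf180 than in scramble (log2 fold change 0.58 ± 0.16, adjusted p = 0.0219). It has the highest transcript GC content of the members, 59.5%, and with the offsets its Baf180 difference was 0.10 ± 0.09 (0.418). The call was also lost without either scramble library or Baf180 replicate 1 (0.40 to 0.67, 0.0791 to 0.158). Differences from scramble were 0.09 ± 0.16 in Brd9 (0.727) and -0.12 ± 0.16 in Baf250A (0.588). Baf180 was 1.40-fold higher than Brd9 (0.49 ± 0.16, 0.0301), and Baf250A 1.62-fold lower than Baf180 (-0.70 ± 0.16, 0.00431). With the offsets these were -0.03 (0.859) and 0.11 (0.334), neither called. The Baf180 difference from Brd9 was also lost without either scramble library, Brd9 replicate 1 or Baf180 replicate 1 (0.31 to 0.49, 0.0536 to 0.21).

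Mlx, the Max-like partner of Mlxip, Mlxipl, Mnt and some Mxd proteins (gene ID 21428, chr11:101086707-101092207, plus strand), was lower than scramble in the libraries of all 3 knockdowns. It had 31.6 and 33.8 CPM in Brd9, 30.4 and 30.0 CPM in Baf250A, 41.9 and 44.2 CPM in Baf180, and 49.1 and 50.6 CPM in scramble. No 2 of the 4 groups overlapped. Mlx fell by 0.61 ± 0.13 on the log2 scale in Brd9 (1.53-fold lower, adjusted p = 0.0207) and by 0.72 ± 0.13 in Baf250A (1.65-fold lower, 0.00471). In Baf180 the difference was -0.21 ± 0.13 (0.221). Both calls held with the offsets (-0.57 and -0.65, adjusted p = 0.0016 and 0.000453). The Brd9 call was lost without either scramble or either Brd9 library (-0.64 to -0.54, 0.0566 to 0.177), and the Baf250A call without Baf250A replicate 2 (-0.66, 0.051). Baf180 was 1.32-fold higher than Brd9 (0.40 ± 0.13, 0.0312), and Baf250A 1.42-fold lower than Baf180 (-0.51 ± 0.13, 0.00755; lost without Baf250A replicate 2, -0.46, 0.0657). The first of these held with the offsets (0.42, 0.00706) but was lost with any library left out but Baf250A replicate 2 (0.34 to 0.44, 0.0501 to 0.183). Of the exonic bases of Mlx, 19.3% overlap Psmc3ip on the other strand, and counting is not stated to use strand. Psmc3ip, a recombination factor, had 179 and 141 counts in Brd9, 236 and 223 in Baf250A, 108 and 120 in Baf180, and 172 and 200 in scramble, and was called lower in Baf180 (-0.73 ± 0.20, 0.0208; in 5 of 8 fits with a library left out). The part of Psmc3ip reads in the Mlx counts was not tested.

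Mga, which carries a T-box domain besides its Max-binding domain (gene ID 29808, chr2:119872503-119970129, plus strand), had the widest range of group means among the tested members, 2.06 (log2 CPM). It had 406 and 342 counts in Brd9, 497 and 797 in Baf250A, 123 and 149 in Baf180, and 213 and 283 in scramble. The Baf250A and Brd9 libraries exceeded both scramble libraries, the Baf180 libraries lay below them, and the Baf250A pair was the most spread. Mga was 2.34-fold higher in Baf250A than in scramble (33.1 ± 11.4 CPM against 14.2 ± 3.11 CPM, SD of 2 libraries; log2 fold change 1.22 ± 0.25, adjusted p = 0.00872). It was 1.85-fold lower in Baf180 than in scramble (7.63 ± 0.707 CPM against 14.2 ± 3.11 CPM; -0.89 ± 0.27, 0.0304), and in Brd9 the difference was 0.41 ± 0.26 (0.302). Its transcripts had the lowest GC content among the members, 42.0%, within the lowest 10% of tested genes. With the offsets, the Baf250A difference was 0.27 ± 0.14 (0.159), the Baf180 difference -0.06 ± 0.16 (0.804) and the Brd9 difference -0.12 ± 0.15 (0.562), none of them called. The Baf250A call was lost without scramble replicate 1 or Baf250A replicate 2 (0.88 to 1.02, 0.0504 to 0.0777), and the Baf180 call without scramble replicate 2 or either Baf180 library (-0.99 to -0.65, 0.0536 to 0.192). Between knockdowns, Baf250A was 4.33-fold higher than Baf180 (2.11 ± 0.27, 0.000266), which the offsets reduced to 0.33 ± 0.15 (0.0875). Baf180 was 2.46-fold lower than Brd9 (-1.30 ± 0.26, 0.00661; lost without Baf180 replicate 1, -1.21, 0.053), and the value was 0.06 (0.78) with the offsets. Baf250A was 1.76-fold higher than Brd9 (0.81 ± 0.25, 0.0421), called also with the offsets (0.40, 0.0417) but lost without either scramble library, either Brd9 library or Baf250A replicate 2 (0.44 to 0.92, 0.0517 to 0.283).

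Among the 9807 genes that averaged 5 CPM or more, those with group means most like Mga were Zfp868, a zinc finger gene, Setd2, the methyltransferase for histone H3 lysine 36, and Zmym5, a zinc finger gene. Likeness was the root mean square difference of centred group means of log2 CPM over the 4 groups, 0.014, 0.016 and 0.029. The centred means of Mga were 0.24 in Brd9, 1.00 in Baf250A, -1.05 in Baf180 and -0.19 in scramble. Setd2 stood at 0.24, 1.03, -1.07 and -0.20 in the same order of groups. Transcript GC contents of the 3 genes were 43.6%, 44.3% and 41.9%, near the 42.0% of Mga. These 8 libraries share the GC trend given above, whose part in the likeness was not tested.

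The direct comparisons of the knockdowns, whose single values stand with each member, called 4 of 9 members in Baf250A minus Brd9 (25.0% of all tested genes called), 6 of 9 in Baf180 minus Brd9 (49.6%) and 5 of 9 in Baf250A minus Baf180 (62.5%). With the offsets, Baf250A minus Brd9 called Max and Mxd3 besides those 4 members, where 5299 of the 12420 tested genes were called. Baf250A minus Baf180 gained Max and lost Mnt and Mga with the offsets. Baf180 minus Brd9 with the offsets called 2 members, Mxi1 and Mlx, where 32.1% of all tested genes were called. Its count was 1 without Brd9 replicate 1 and 0 without Baf180 replicate 1. Baf250A minus Brd9 fell to 2 without either Brd9 library and to 1 without Baf250A replicate 2.

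Within a library, the summed TPM of the factors that compete with Myc for Max (Mxd1, Mxi1, Mxd3, Mxd4 and Mnt) exceeded that of Myc. The sums were 163 and 155 TPM in Brd9, 134 and 115 TPM in Baf250A, 199 and 180.0 TPM in Baf180, and 111 and 106 TPM in scramble. Every knockdown library had a larger sum than both scramble libraries. The ratio of Myc to this sum was 0.517 and 0.466 in Brd9, 0.815 and 0.968 in Baf250A, 0.259 and 0.421 in Baf180, and 0.726 and 0.784 in scramble. The Brd9 and Baf180 ratios lay below both scramble ratios, and the Baf250A ratios lay above them. Mxd4 made up 37.4% and 34.4% of the sum in Brd9, 24.1% and 19.4% in Baf250A, 36.0% and 40.7% in Baf180, and 19.3% and 18.5% in scramble. Mxd3 was the largest contributor in scramble, at 50.4% and 51.7%, while Mxd1 gave at most 2.07% in any library. These sums and ratios are transcript levels without a test, and they carry the GC trend of the libraries. They also carry any Prelid1 reads in the Mxd3 counts, a part that was not tested.

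**Figure D3:**
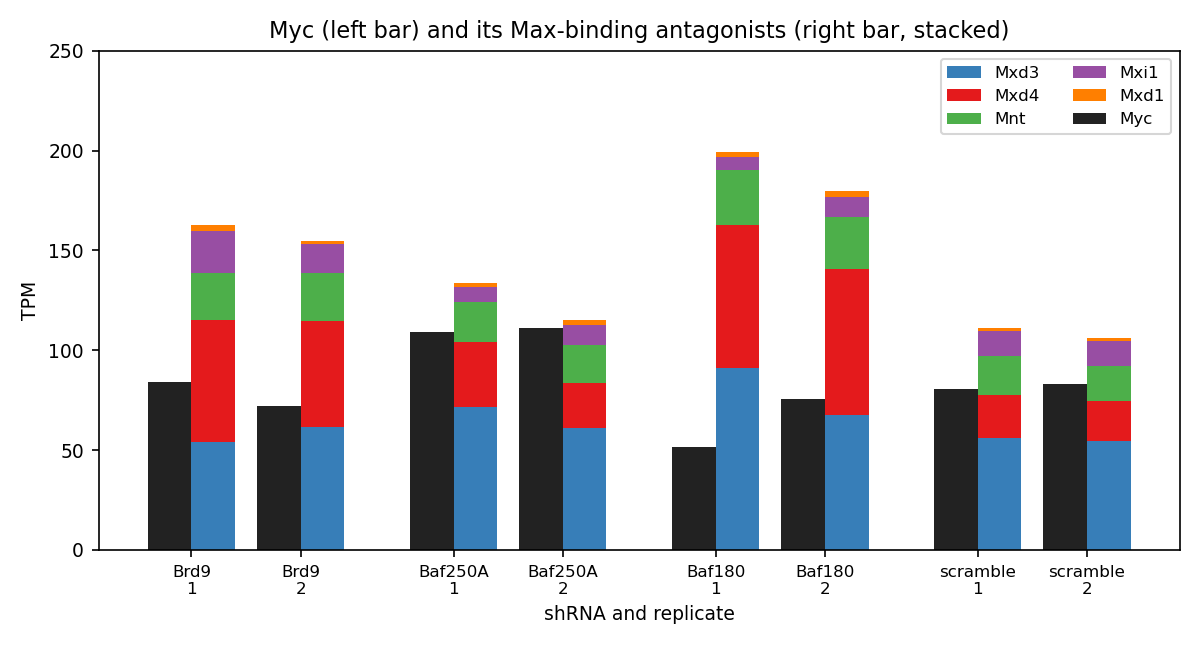
TPM of Myc (black bars) and of its Max-binding competitors Mxd3, Mxd4, Mnt, Mxi1 and Mxd1 (stacked bars) in each library of the Brd9, Baf250A and Baf180 knockdowns and of scramble. The stacks reach 199 and 180.0 TPM in Baf180, against 111 and 106 TPM in scramble, and the red Mxd4 segments are the ones that differ most.

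Of the partners of Mlx, Mlxip (MondoA) was well counted and Mlxipl (ChREBP) was at 0 counts in all libraries. Mlxip had 43.2 and 48.9 CPM in Brd9, 46.2 and 45.8 CPM in Baf250A, 58.7 and 58.1 CPM in Baf180, and 46.4 and 45.1 CPM in scramble, and no difference from scramble was called (0.01 in Brd9, 0.01 in Baf250A and 0.35 in Baf180; adjusted p = 0.965, 0.964 and 0.0593). Txnip, the thioredoxin-binding inhibitor of glucose uptake that Mlx and Mlxip are known to activate, had 813 and 695 counts in Brd9, 619 and 568 in Baf250A, 585 and 698 in Baf180, and 175 and 173 in scramble. Every knockdown library lay far above both scramble libraries. Txnip was 3.82-fold higher in Brd9 (log2 fold change 1.93 ± 0.15, adjusted p = 0.000185), 3.05-fold higher in Baf250A (1.61 ± 0.15, 0.000152) and 3.63-fold higher in Baf180 (1.86 ± 0.15, 0.000102) than in the shared scramble libraries. All 3 calls held with the offsets and with any library left out. Between knockdowns, Txnip was -0.33 in Baf250A minus Brd9, -0.07 in Baf180 minus Brd9 and -0.25 in Baf250A minus Baf180 (adjusted p = 0.124, 0.675 and 0.148), none called. With the offsets Baf250A was called lower than Brd9 (-0.29, 0.0329) and lower than Baf180 (-0.42, 0.00495). Arrdc4, an arrestin-like gene that the same factors activate, had 12 and 17 counts in Brd9, 13 and 16 in Baf250A, 19 and 14 in Baf180, and 4 and 12 in scramble, and was not called.

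**Figure D4:**
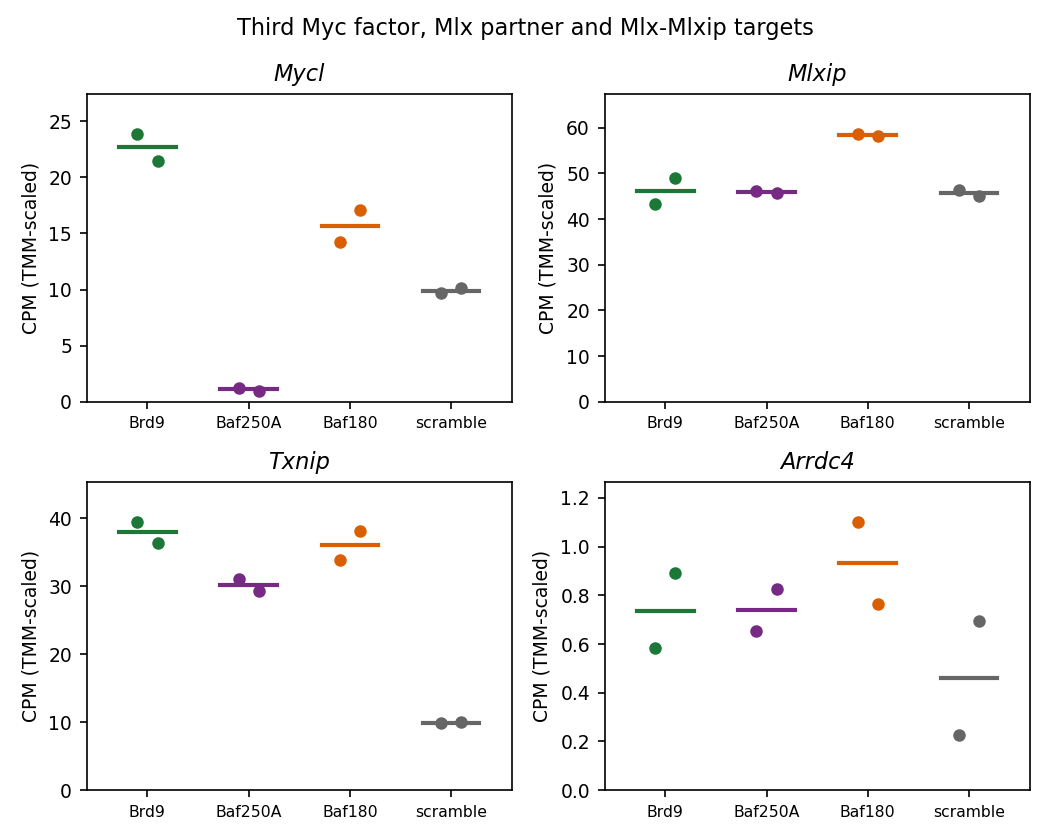
CPM (vertical axes, from 0) of Mycl, Mlxip, Txnip and Arrdc4 in the libraries of the Brd9, Baf250A and Baf180 knockdowns and of scramble; points are libraries and lines the mean of 2. Mycl is near 1 CPM in Baf250A (1.26 and 0.981) against 9.66 and 10.1 CPM in scramble, and Txnip in every knockdown library stands above scramble (9.83 and 10.0 CPM).

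Textbook Myc targets, 31 genes, were all tested. Among them are genes of ribosome production, nucleotide and polyamine synthesis and cell cycle entry, beside others such as Ldha, Hk2, Tfrc, Slc7a5, Hspd1 and Tert. In Brd9, 11 fell and 0 rose (3.57% of all tested genes called lower and 6.45% higher), with a median log2 fold change of -0.49 against 0.04 over all tested genes. In Baf250A, 9 rose and 2 fell (15.5% called higher and 14.0% lower), with a median of -0.06 against -0.02. In Baf180, 16 fell and 0 rose (17.0% called lower and 17.2% higher), with a median of -0.52 against -0.02. None rose in Brd9 or Baf180 at an unadjusted p under 0.05 in edgeR or at an adjusted p under 0.05 in DESeq2 either. With the offsets, 25 fell and 0 rose in Brd9, where 13.9% of all tested genes were lower and 14.4% higher. In Baf250A 4 fell and 9 rose (18.0% lower and 17.5% higher), and in Baf180 25 fell and 0 rose (18.8% lower and 19.5% higher). Medians with the offsets were -0.49 in Brd9, 0.09 in Baf250A and -0.64 in Baf180. Without 1 library, the Brd9 median stayed between -0.56 and -0.39, but 0 genes passed the threshold without either scramble library and 1 without Brd9 replicate 1. In Baf180, 12 to 15 fell in each such fit. Rises in Baf250A fell to 3 when scramble replicate 1 or Baf250A replicate 2 was left out, and to 1 when scramble replicate 2 was.

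Ccnd2, the cyclin that carries cells into S phase, averaged 34.2 CPM in Brd9, 17.1 CPM in Baf180 and 70.4 CPM in scramble, with log2 fold changes of -1.04 ± 0.18 in Brd9 (adjusted p = 0.00917) and -2.04 ± 0.19 in Baf180 (0.000184). Nop56, a core protein of the particles that modify ribosomal RNA, averaged 204 CPM in Brd9, 171 CPM in Baf180 and 333 CPM in scramble, with log2 fold changes of -0.71 ± 0.12 (0.00639) and -0.96 ± 0.12 (0.000681). Rcc1, the exchange factor for Ran, was -0.90 ± 0.16 in Brd9 (0.00917). The Brd9 calls of Ccnd2, Nop56 and Rcc1 were all lost without either scramble library, and those of Nop56 and Rcc1 also without Brd9 replicate 1 (adjusted p from 0.0614 to 0.0846 over these fits). Dkc1, the pseudouridine synthase of the same class of particles, fell by 1.50 ± 0.21 in Baf180 (0.00131). The nucleolar genes Ncl, Nop58 and Gnl3 rose in Baf250A, by 1.19 ± 0.21, 0.99 ± 0.20 and 1.21 ± 0.25 on the log2 scale (adjusted p = 0.00472, 0.00828 and 0.00854). With the offsets these were 0.41 (0.025), 0.24 (0.104) and 0.77 (0.000971), so the Nop58 call ended. Nop58 was also lost without scramble replicate 2 (0.87, 0.0715), and Gnl3 without either scramble library (1.19 to 1.22, 0.0519 to 0.0619). Summed CPM of 6 proliferation markers, all 6 detected, moved with these groups: 1110 to 1160 in Brd9, 1630 to 1950 in Baf250A, 849 to 885 in Baf180, and 1290 to 1390 in scramble. Those of 8 differentiated muscle markers were 14.6 to 21.4 in Brd9, 36.7 to 41.8 in Baf250A, 96.5 to 117 in Baf180, and 17.8 to 18.6 in scramble, with Myh1 at 0 in Baf250A and Baf180. Their part in the results was not tested.

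**Figure D5:**
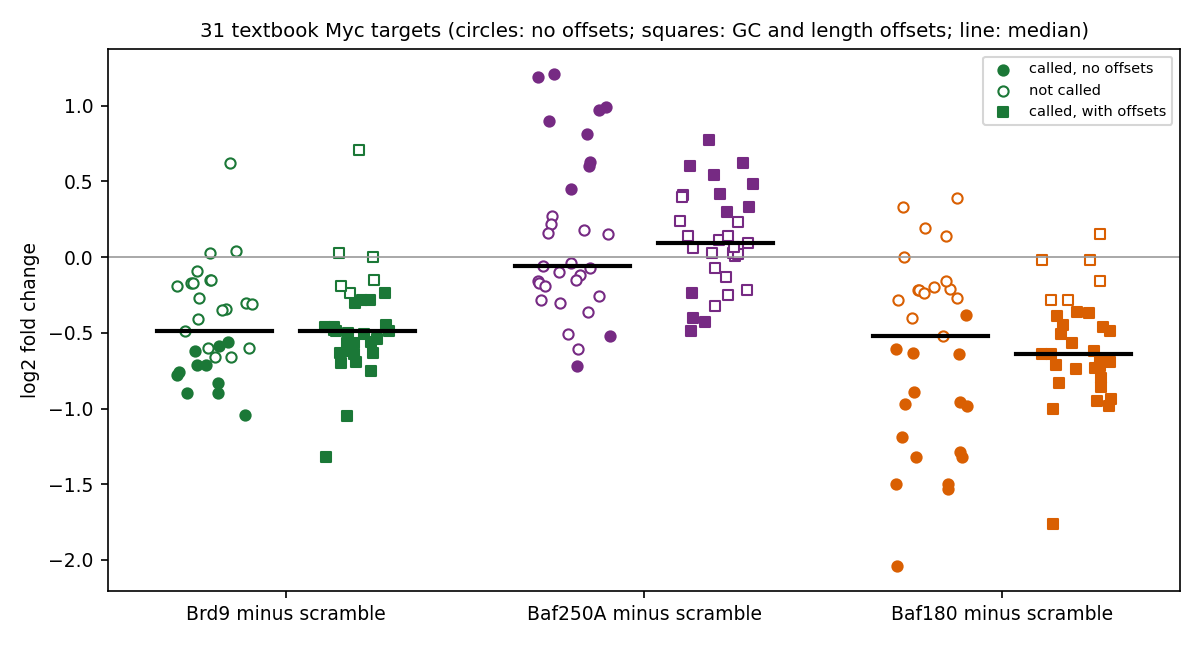
Log2 fold change against scramble of 31 textbook Myc targets in the Brd9, Baf250A and Baf180 knockdowns, without offsets (circles) and with GC and length offsets (squares); filled symbols are called at adjusted p under 0.05 and lines are medians. Medians lie at -0.49 in Brd9 and -0.52 in Baf180 without offsets, and at -0.06 in Baf250A.

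Among 6 genes that Myc represses through Zbtb17, 5 were tested and Cdkn2b, a cyclin-dependent kinase inhibitor, was at 0 counts in all libraries. In Baf180, 3 rose and 0 fell, where 17.2% of all tested genes were called higher and 17.0% lower, with a median of 0.37 against -0.02 over all tested genes. DESeq2 called 2 of the 5 higher, and edgeR with the offsets 1, where 19.5% of all tested genes were higher. Cdkn1a, the p21 inhibitor, averaged 422 CPM in Baf180 and 225 CPM in scramble (log2 fold change 0.91 ± 0.14, adjusted p = 0.00256), called with the offsets and with any library left out. Cdkn1c (p57) was 0.78 ± 0.23 (0.028) and Ndrg1, a stress-induced gene, 0.37 ± 0.13 (0.0474), and both calls ended with the offsets (0.33 and 0.19, adjusted p = 0.298 and 0.0797). Cdkn1c was lost without either scramble or either Baf180 library, and Ndrg1 without either scramble library, either Baf250A library or Baf180 replicate 1. In Baf250A, where 14.0% of all tested genes were called lower, 2 fell, Ndrg1 (-1.27 ± 0.13, 0.000236) and its relative Ndrg2 (-2.13 ± 0.24, 0.000415), called with the offsets and with any library left out. In Brd9, 0 of 5 were called by edgeR without offsets or by DESeq2, and 1 was higher and 0 lower at an unadjusted p under 0.05 in edgeR. With the offsets Cdkn1a was called higher in Brd9 (0.59, 0.000521; without offsets 0.41, 0.0947). The Brd9 median was -0.18 against 0.04 over all tested genes. The 3 rises in Baf180 were 1 without either scramble library or Baf180 replicate 1, and 2 without either Baf250A library or Baf180 replicate 2.

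Of 14 Myc cofactors, all tested, 1 fell in Brd9 (Wdr5, a chromatin scaffold that anchors Myc, -0.50 ± 0.12, adjusted p = 0.0322), 1 rose in Baf250A (Ccnt1, the cyclin of the elongation kinase, 0.83 ± 0.23, 0.0262) and 0 were called in Baf180 by edgeR without offsets or by DESeq2 (1 higher and 1 lower at an unadjusted p under 0.05 in edgeR). The shares of all tested genes called lower in Brd9 and higher in Baf250A were 3.57% and 15.5%. DESeq2 called 3 cofactors lower in Brd9. Medians were -0.34 in Brd9, -0.17 in Baf250A and 0.08 in Baf180. With the offsets, 1 cofactor was higher and 4 lower in Brd9 (Ccnt1 higher; Wdr5, Ruvbl2, Actl6a and Ruvbl1 lower), 2 were higher in Baf250A (Ccnt1 and Kat2a) and 4 lower in Baf180 (Kat2a, Ruvbl2, Ruvbl1 and Kat5), against 14.4% higher and 13.9% lower, 17.5% higher, and 18.8% lower over all tested genes. Genes named for calls with the offsets, here and in the lists that follow, were chosen after their values were seen. The Wdr5 call was lost without either scramble, either Brd9 or either Baf250A library (-0.53 to -0.43), and the Ccnt1 call without either scramble library or Baf250A replicate 2 (0.56 to 0.90). Of 11 turnover factors, all tested, 2 rose in Baf250A and 2 fell in Baf180, with medians of -0.08 in Brd9, 0.08 in Baf250A and -0.23 in Baf180. In Brd9 0 were called by edgeR without offsets, where 2 were higher and 2 lower at an unadjusted p under 0.05, and DESeq2 called 1 lower. Over all tested genes 15.5% were called higher in Baf250A and 17.0% lower in Baf180. With the offsets 3 turnover factors were lower in Brd9 (Aurka, Cip2a and Usp36), 2 higher and 1 lower in Baf250A (Fbxw7 and Usp36, and Btrc) and 3 lower in Baf180 (Aurka, Cip2a and Skp2). Of all tested genes, 13.9% were then lower in Brd9, 17.5% higher and 18.0% lower in Baf250A, and 18.8% lower in Baf180. Cip2a, which shields Myc from dephosphorylation, averaged 63.1 CPM in Baf250A, 9.34 CPM in Baf180 and 27.9 CPM in scramble. It was 1.18 ± 0.25 in Baf250A (0.00874), lost with the offsets (-0.02, 0.897) and without scramble replicate 1 (1.00, 0.077), and -1.57 ± 0.26 in Baf180 (0.003), which held with the offsets (-0.62, 0.00215). Fbxw7, the ubiquitin ligase receptor for phosphorylated Myc, rose in Baf250A (0.91 ± 0.23, 0.0198), and Skp2, another ubiquitin ligase receptor for Myc, fell in Baf180 (-0.82 ± 0.19, 0.0127). Both held with the offsets. The Fbxw7 call was lost without either scramble library or Baf250A replicate 2 (0.78 to 1.04), and the Skp2 call without scramble replicate 1 or Baf180 replicate 1 (-0.68 to -0.61).

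Of 18 Sin3 and Hdac corepressor genes through which Mxd proteins and Mnt act, all tested, 0 were called in Brd9 by edgeR, with or without the offsets, or by DESeq2, and 0 had an unadjusted p under 0.05 in edgeR. In Baf250A 1 rose and 1 fell, where 15.5% of all tested genes were called higher and 14.0% lower. In Baf180 5 fell and 0 rose (2 higher at an unadjusted p under 0.05 in edgeR, 1 by DESeq2), where 17.0% of all tested genes were called lower and 17.2% higher. With the offsets 7 were lower and 1 higher in Baf180 (Brms1l higher), and 2 higher and 1 lower in Baf250A (Arid4b and Ing1, and Rbbp4). Of all tested genes, 18.8% were then lower and 19.5% higher in Baf180, and 17.5% higher and 18.0% lower in Baf250A. Medians were -0.02 in Brd9, 0.24 in Baf250A and -0.33 in Baf180. In Baf180, Sap30, a Sin3 subunit, was -0.89 ± 0.18 (adjusted p = 0.00684), the deacetylase Hdac2 was -1.10 ± 0.23 (0.00737) and Arid4a, a Sin3-associated protein, was -0.96 ± 0.27 (0.0264). The Arid4a call ended with the offsets (-0.44, 0.0622) and without either scramble library or Baf180 replicate 1 (-1.04 to -0.76). Sap30 was lost without scramble replicate 1 (-0.80, 0.0574) and Hdac2 without Baf180 replicate 1 (-0.87, 0.0536). Arid4b, the relative of Arid4a, was 1.77 ± 0.31 in Baf250A (0.00445), called with the offsets too (0.80, 0.0241), and -1.06 ± 0.35 in Baf180 (0.042), which ended with the offsets (-0.30, 0.437) and when any scramble, Brd9 or Baf180 library was left out (-1.30 to -0.76). Rbbp4, a histone chaperone of the complex, fell in Baf250A (-0.43 ± 0.12, 0.0246), a call lost without either scramble or either Baf250A library (-0.49 to -0.35). The 5 falls in Baf180 were 1 without scramble replicate 1 or Baf180 replicate 1, 2 without scramble replicate 2 and 3 without either Brd9 library.

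The partners of Mga in PRC1.6, 9 genes, were all tested. In Brd9 0 were called by edgeR without offsets (1 higher and 1 lower at an unadjusted p under 0.05; 1 lower by DESeq2). In Baf250A 4 rose and 1 fell, where 15.5% of all tested genes were called higher and 14.0% lower. In Baf180 1 rose and 2 fell, where 17.2% were called higher and 17.0% lower. With the offsets, 1 was higher and 2 lower in Brd9 (Ring1 higher, 0.42, adjusted p = 0.0129; L3mbtl2 and Tfdp1 lower), 3 were higher and 0 lower in Baf250A (Ring1, Tfdp1 and E2f6 higher), and 1 was higher and 1 lower in Baf180 (Ring1 higher and Pcgf6 lower). Of all tested genes, 14.4% were higher and 13.9% lower in Brd9 with the offsets. These shares were 17.5% and 18.0% in Baf250A, and 19.5% and 18.8% in Baf180. Medians of the 9 genes were 0.24 in Brd9, 0.57 in Baf250A and -0.49 in Baf180, and with the offsets 0.11, 0.29 and -0.11. In Baf250A, Cbx3, a heterochromatin protein, was 1.02 ± 0.24 (adjusted p = 0.0133), Rnf2, the ubiquitin ligase subunit, was 1.22 ± 0.28 (0.0138) and E2f6, the repressive E2F factor, was 0.61 ± 0.14 (0.0148). With the offsets E2f6 stayed called (0.62, 0.000502), whereas Cbx3 (0.29, 0.113) and Rnf2 (0.36, 0.074) did not. In Baf180, Pcgf6, which defines the complex, fell by 1.45 ± 0.25 on the log2 scale (0.0033), called with the offsets (-1.15, 0.000592) and with any library left out. Cbx3 was -0.88 ± 0.24 in Baf180 (0.0214), ended by the offsets (-0.18, 0.326), and Ring1, the relative of Rnf2, was 0.83 ± 0.19 (0.0116), called with the offsets (0.30, 0.0341). The 4 rises in Baf250A were 1 with scramble replicate 1 left out, 0 with scramble replicate 2 or Baf250A replicate 2 left out, and 6 with either Brd9 library or Baf250A replicate 1 left out. Falls in Baf180 ran from 1 (without either scramble library or Baf180 replicate 1) to 4 (without Baf180 replicate 2). Cbx3 was lost in Baf250A without scramble replicate 2 or Baf250A replicate 2. The calls of Rnf2 and E2f6 were lost without either scramble library or Baf250A replicate 2, and those of Cbx3 and Ring1 in Baf180 without either scramble library or Baf180 replicate 1. Of 13 germline genes that Mga and PRC1.6 silence, 1 had enough counts to be tested and was not called against scramble. Its transcripts had a GC content of 34.6%. It was -0.71 in Brd9, 1.25 in Baf250A and -1.41 in Baf180, and with the offsets -1.09, -0.23 and -0.27. It was called higher in Baf250A than in Brd9 (1.96) and Baf180 (2.66), and neither call held with the offsets (0.87 and 0.04). In fits of only the 4 libraries compared, this gene passed the count filter against scramble in Baf250A, but not in Brd9 or Baf180. It was thus tested because of its counts in Baf250A, and these calls give no support for a rise there. Summed counts of the 13 genes were 7 and 6 in Brd9, 22 and 27 in Baf250A, 2 and 5 in Baf180, and 3 and 14 in scramble, with 1 to 3 of the 13 genes counted in a library. CACGTG stood in the promoter windows of 8 of the 12 germline genes with one (66.7%) and of 7 of the 24 Myc target genes with one (29.2%). The share was 11.8% of tested genes and 8.09% of all genes with a window, and most of the germline genes were not tested. Both lists were chosen as targets of network factors, which bind CACGTG, so their shares are no separate evidence of binding.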

How the data were processed

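RNA from 8 libraries of C2C12 myoblasts, prepared and sequenced by BGI, was used. Values in the deposited table are estimated counts, not normalised by the authors. Tools in the submitters' processing notes are RSEM, Bowtie2, HISAT2, StringTie, Cufflinks and DESeq2, with the build mm10. What each did, their versions and any use of strand: not given in the sources used here. Gene length comes from another column of values, per the file headers.

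Estimated counts were rounded to whole numbers. Of 24573 gene IDs, 24479 were named by ID and 9 by RefSeq accession. Genes passing filterByExpr entered 1 edgeR 4.0.16 quasi-likelihood fit (R 4.3.3, TMM, 4 groups), with Benjamini-Hochberg adjustment over 12420 genes per comparison and calls at adjusted p under 0.05. SE is the log2 fold change over the square root of F. TPM use the deposited length. DESeq2 1.42.0, other scalings and filters, a replicate block, each library left out, and loess offsets (span 0.3) for GENCODE transcript GC content (98.95% of tested genes) and length were alternatives. The test was checked on counts simulated with known changes and no GC trend, so that check does not cover the GC trend of these libraries. The offsets were run on counts simulated with such a trend.

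Members and lists were chosen with earlier results of these data known. Named genes are all members, the targeted genes, every gene of lists of up to 5, up to 3 called genes of lowest p per list and comparison with scramble, and the 3 genes most like the member of widest range. No label says whether the paired libraries of an shRNA were separate cultures, and p-values then reflect only library spread, which may be technical. Floors cover counting error only.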

Additional observations from a re-analysis of the deposited data

How the results depend on the processing

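With 2 libraries per group and 1 shRNA per target, the count of calls depends on single libraries. Leaving out 1 library gave 0 to 2 members called in Brd9, 0 to 3 in Baf250A and 1 to 5 in Baf180 against scramble, 1 to 4 in Baf250A minus Brd9, 0 to 6 in Baf180 minus Brd9 and 4 to 6 in Baf250A minus Baf180. Of 54 member values (9 members, 6 comparisons), RLE scaling left all 54 on their side of the threshold and in their direction, DESeq2 53 and the GC and length offsets 28. With the offsets 12 changed sign, 3 of them among called values. The cause of these changes was not tested. A true expression change that tracks GC content would be taken out by the offsets as well.

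The offsets moved members called to 6 in Baf250A against scramble and to 2 in Baf180 minus Brd9, with or without the block. Without the block, the offsets also added calls of Max and Mxd3 in Baf250A minus Brd9. In Baf250A minus Baf180 they added Max and ended the calls of Mnt and Mga. In Baf180 against scramble they added Myc and ended the calls of Mnt and Mga. Over all genes, 1244 were called in Brd9 against scramble, with 2588 without a filter, 2540 in the 4 libraries alone and 3506 with the offsets. With the offsets, calls numbered 5299 in Baf250A minus Brd9 (3108 without) and 3990 in Baf180 minus Brd9 (6158 without). Without 1 library the count over all genes ran from 231 to 1558 in Brd9, from 1171 to 4114 in Baf250A and from 1560 to 4514 in Baf180 against scramble.

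Samples of the 4 groups share replicate numbers 1 and 2 in their titles, which no label ties to a batch. Deviations of same-numbered libraries correlated from -0.481 to 0.456 between groups, so the numbers were not taken as pairs. With the replicate block, members called were 1 in Brd9 and 3 in Baf180 against scramble, and 721 genes were called in Brd9. With the block and the offsets together 2872 genes were called in Brd9 against scramble, 4878 in Baf250A minus Brd9 and 3507 in Baf180 minus Brd9.

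Values that changed sign are given first with the offsets and then with the block and the offsets together. In Baf180 minus Brd9, Myc was -0.41 and -0.43, Mnt -0.03 and -0.03, and Mga 0.06 and 0.07. Max in Baf180 minus scramble was 0.00 and 0.01, and Mxd1 in Baf250A minus Brd9 0.00 and 0.01. Mxd3 was 0.06 and 0.06 in Brd9 minus scramble and 0.26 and 0.27 in Baf250A minus Baf180, where Mxi1 was 0.02 and 0.02 and Mnt 0.11 and 0.11. Mnt was 0.21 and 0.21 in Baf250A minus scramble and 0.09 and 0.09 in Baf250A minus Brd9. Mga was -0.12 and -0.12 and Mlxip -0.06 and -0.07 in Brd9 minus scramble, and Cip2a -0.02 and -0.02 in Baf250A minus scramble.

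Upper-quartile scaling gave -0.07 for Myc and -0.07 for Max in Baf180 minus Brd9, -0.02 for Mlxip in Baf250A minus scramble and -0.01 for Pvt1 in Baf180 minus scramble. A filter at a mean of 5 CPM gave -0.02 for Myc and for Max in Baf180 minus Brd9. RLE scaling and DESeq2 gave -0.01 for Mlxip in Brd9 minus scramble.

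With 1 library left out, values that changed sign, none of them called, ranged as follows. In Baf180 minus Brd9, Myc ran from -0.13 to 0.15 and Max from -0.03 to 0.08. Max ran from -0.15 to 0.03 in Brd9 and from -0.13 to 0.05 in Baf180 against scramble. Against scramble in Baf250A, Mxd3 ran from -0.02 to 0.27, Mxd4 from -0.04 to 0.54, Mnt from -0.20 to 0.01 and Mlxip from -0.01 to 0.07. Mxd1 ran from -0.37 to 0.30 in Baf250A minus Brd9, and Mxi1 from -0.28 to 0.07 in Baf250A minus Baf180. Mlxip ran from -0.06 to 0.12 in Brd9 and Pvt1 from -0.09 to 0.23 in Baf180, against scramble. Levels in TPM in place of CPM changed the order of the 4 groups for 5 of 9 members, Myc, Max, Mxd3, Mxi1 and Mnt.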
